A study of Mus musculus with 18 samples.

Results

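The 9 growth factor receptor genes followed here were Egfr, Fgfr1, Fgfr2, Fgfr3, Pdgfra, Pdgfrb, Kdr, Flt1 and Met. They were taken by gene symbol, and all 9 were among the 12205 genes with values. The cells were primary astrocytes of newborn wild-type C57BL mice, male and female pooled, thawed and plated at 1300000 cells per dish. Untreated cells were kept for 120 h. Treated cells were kept for 96 h and then exposed for 24 h to a pair of inflammatory cytokines, TNFα at 20 ng/ml with IL-1β at 0.25 ng/ml, or kept for 72 h and exposed for 48 h. Cycloheximide lysates went into RNA-seq, for mRNA levels, and into ribosome profiling, for footprints, the pieces of mRNA of 26 to 34 nt that a ribosome shields from RNase I. The 18 libraries made 6 groups of 3 batches.

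Receptor tyrosine kinases are single-pass membrane proteins that pair up when a growth factor binds and then phosphorylate each other, which starts RAS-ERK and PI3K signalling. In the brain, EGFR and FGFR1 to FGFR3 act in astrocyte growth and maturation, PDGFRα marks oligodendrocyte precursors and fibroblast-like cells, and PDGFRβ marks pericytes. KDR (VEGFR2) and FLT1 (VEGFR1) are best known from endothelium, where FLT1 binds VEGF-A tightly but signals weakly, and MET is the receptor of hepatocyte growth factor.

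After cytokines the receptors differed in the direction of their mRNA values. Pdgfra, Egfr and Flt1 were higher at both times, and Kdr was lower by over 10-fold. Fgfr1, Fgfr2, Fgfr3 and Pdgfrb had log2 values between -1.43 and -0.85, which passed -1 at both times for Fgfr1, at 24 h for Fgfr2, and at 48 h for Fgfr3 and Pdgfrb. Met lay nearest to 0. Footprints followed the same order of directions in each of the 8 genes other than Met. The authors' deposited table holds 1 log2 fold change against untreated cells per gene, time and measurement, with no values per library. No difference could therefore be set against the spread between batches, no test was possible, and a gene is called higher or lower only by size, where its log2 value reaches 1 or -1.

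Of the 9 receptors, 3 were higher in RNA at 24 h, beside 7.54% of all genes, and 3 were lower, beside 9.55%. In footprints at 24 h 2 were higher (7.87% of all genes) and 2 lower (8.7%). At 48 h RNA put 3 higher (8.11%) and 4 lower (10.3%), and footprints put 3 higher (8.13%) and 3 lower (8.71%). The median of the receptors was -0.85 in RNA and -0.70 in footprints at 24 h, and -0.90 and -0.55 at 48 h, where the medians of all genes lay between -0.03 and 0.01. Of the 9 receptors, 3 (Egfr, Flt1 and Kdr) were past 1 in all 4 columns of RNA and footprints, and Met in none.

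**Figure D1:**
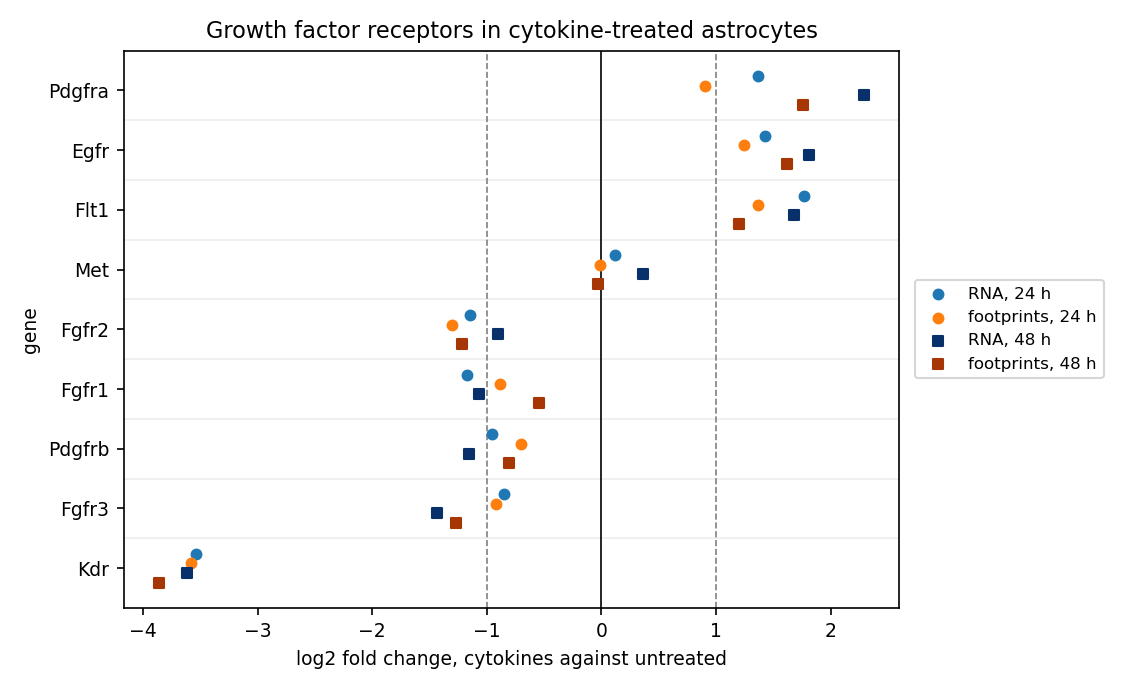
Log2 fold change against untreated cells (horizontal axis) of the 9 receptor genes (vertical axis, ordered by RNA at 48 h) in RNA and footprints at 24 h and 48 h, with 1 deposited value per point, no error, and dashed lines at -1 and 1. Pdgfra, Egfr and Flt1 lie right of 0, Kdr lies beyond -3.5, and Met stays between -0.03 and 0.36.

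The VEGF receptors Kdr and Flt1 had values of opposite sign. Kdr, the main signalling receptor for VEGF-A, stood at -3.54 in RNA and -3.58 in footprints at 24 h in the authors' deposited table, which is 11.6-fold and 11.9-fold lower. At 48 h the authors' deposited table placed it at -3.62 in RNA and -3.86 in footprints, or 12.3-fold and 14.5-fold lower. It ranked 40 from the lowest of 12205 genes in RNA at 24 h and 42 in footprints, and 55 and 49 at 48 h. How many reads lie behind these folds is unknown, as no counts were in the files. Flt1 had RNA values of 1.77 at 24 h and 1.68 at 48 h in the authors' deposited table, and footprints 2.58-fold and 2.29-fold higher, beside 3.41-fold and 3.21-fold higher in RNA. The ratio of Flt1 to Kdr mRNA was thus 39.7-fold higher at 24 h and 39.4-fold higher at 48 h than in untreated cells, and 30.8-fold and 33.2-fold higher in footprints. Flt1 also yields a secreted form that traps VEGF-A, and values per gene do not separate it from the membrane receptor. The related VEGF-C receptor gene Flt4, named after its values were seen, was higher at 1.33 and 1.40 in RNA in the authors' deposited table.

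The DNA just before the annotated start of 3 of these genes is shown, because Kdr and Flt1 had opposite signs and Pdgfra, a chromosomal neighbour of Kdr, differed from it in sign too. Sequences are the 250 bases before the start, 5′ to 3′ on the gene's strand, from RefSeq on GRCm38.p6, at chr5:75978456-75978705 (Kdr, minus strand), chr5:147726012-147726261 (Flt1, minus strand) and chr5:75152001-75152250 (Pdgfra, plus strand). All 3 windows lie inside the annotated gene span, so other transcripts start farther upstream. Capitals mark motif matches.
Kdr: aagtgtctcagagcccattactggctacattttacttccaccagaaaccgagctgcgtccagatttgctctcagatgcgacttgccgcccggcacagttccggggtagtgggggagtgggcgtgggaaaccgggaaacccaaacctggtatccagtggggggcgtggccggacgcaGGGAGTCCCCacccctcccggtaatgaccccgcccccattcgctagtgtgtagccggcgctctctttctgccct
Flt1: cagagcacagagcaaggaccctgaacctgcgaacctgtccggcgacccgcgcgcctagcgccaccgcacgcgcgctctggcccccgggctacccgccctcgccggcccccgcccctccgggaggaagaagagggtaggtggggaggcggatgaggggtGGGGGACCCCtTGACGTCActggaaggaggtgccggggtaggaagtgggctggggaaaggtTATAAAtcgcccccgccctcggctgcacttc
Pdgfra: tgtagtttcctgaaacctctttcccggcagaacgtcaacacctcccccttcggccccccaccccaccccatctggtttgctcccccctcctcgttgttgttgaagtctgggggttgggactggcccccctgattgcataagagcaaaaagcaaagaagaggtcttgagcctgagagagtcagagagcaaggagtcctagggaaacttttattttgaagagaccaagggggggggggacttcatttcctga

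Promoter sequences were used for 7 of the 9 genes (8 windows, Fgfr3 with 2). Fgfr1 had no entry among them, and receptor entries on chromosome 18, where Pdgfrb lies, were left out. Windows were searched on both strands for the κB motif of NF-kB, the AP-1 motif TGANTCA, the cAMP response element TGACGTCA, the STAT motif TTCNNNGAA and the TATA motif TATAAA. Kdr held 1 κB match, GGGAGTCCCC, from 74 to 65 bases before the start. Flt1 also held 1, GGGGGACCCC, from 92 to 83 bases before it, then TGACGTCA from 81 to 74 and TATAAA from 31 to 26. Met held TGAGTCA from 54 to 48 bases before its start. No 2 matches overlapped, and no other match was found in the 8 windows, those of Egfr, Pdgfra, Fgfr2 and Fgfr3 included. Over all 32851 windows of this length, 7.25% held a κB match, 6.75% TGANTCA, 1.55% TGACGTCA, 7.02% TTCNNNGAA and 12.4% TATAAA. Their median content of G and C bases was 52.4%, beside 61.6% in the window of Kdr, 70.4% in that of Flt1 and 74% in that of Met. Shares among windows of like content were not taken. The windows of Kdr, lower in RNA, and of Flt1, higher in RNA, each held a κB match, and a part of it in either change was not tested. These matches are letters in a window and show no binding.

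The PDGF receptors also diverged. Pdgfra, which binds PDGF-A, -B and -C, had RNA values of 1.37 at 24 h and 2.29 at 48 h in the authors' deposited table, 2.58-fold and 4.89-fold higher. Its footprint values in the authors' deposited table were 0.90 at 24 h, short of 1, and 1.76 at 48 h, which is 3.39-fold higher. Pdgfrb, which binds PDGF-B and -D, was at -0.96 and -1.16 in RNA and at -0.70 and -0.81 in footprints by the authors' deposited table. The ratio of Pdgfra to Pdgfrb mRNA was 5.00-fold higher than in untreated cells at 24 h and 10.9-fold higher at 48 h (3.04-fold and 5.94-fold in footprints).

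Of the 9 receptors, Pdgfra had the largest difference between the times, which share the same untreated libraries. Its 48 h value minus its 24 h value was 0.92 in RNA and 0.86 in footprints, rank 101 and rank 143 from the highest of 12205 genes. Egfr differed by 0.38 and 0.37, and Fgfr3 by -0.59 and -0.36, toward lower levels. The remaining RNA differences lay between -0.20 (Pdgfrb) and 0.24 (Met and Fgfr2). None of the 9 passed 1 in either direction, in RNA (1.56% of all genes did) or in footprints (1.79%).

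Egfr, which binds EGF, TGFα, amphiregulin, epiregulin and HB-EGF, had RNA values of 1.43 at 24 h and 1.81 at 48 h in the authors' deposited table, 2.69-fold and 3.51-fold higher. Footprints of Egfr were at 1.25 and 1.62 in the authors' deposited table, 2.37-fold and 3.07-fold higher. Its relative Erbb4, a neuregulin receptor, was at -3.32 and -3.46 in RNA in the authors' deposited table. Erbb2, a partner receptor with no ligand of its own, was named after its values were seen and lay at -0.63 and -0.70 in RNA in the authors' deposited table. The ratio of Egfr to Erbb4 mRNA was 26.9-fold higher than in untreated cells at 24 h and 38.7-fold higher at 48 h, and 20.4-fold and 41.8-fold higher in footprints.

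The 3 FGF receptors had RNA values below 0 at both times, and at 24 h these lay within 0.33 on the log2 scale. Fgfr1, the main receptor of FGF2, was at -1.17 at 24 h and -1.07 at 48 h in RNA and at -0.89 and -0.55 in footprints by the authors' deposited table. Fgfr2 was at -1.14 and -0.90 in RNA and at -1.31 and -1.22 in footprints by the authors' deposited table. Fgfr3, an astrocyte-enriched receptor, was at -0.85 and -1.43 in RNA and at -0.92 and -1.27 in footprints by the authors' deposited table. At 48 h they had spread to a range of 0.53 in RNA and 0.72 in footprints, with Fgfr3 lowest and Fgfr2 highest in RNA but Fgfr1 highest in footprints. Untreated RNA exceeded treated RNA 2.26-fold, 2.21-fold and 1.80-fold for Fgfr1, Fgfr2 and Fgfr3 at 24 h, and 2.10-fold, 1.87-fold and 2.70-fold at 48 h.

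Met had RNA values of 0.12 and 0.36 and footprint values of -0.01 and -0.03 at 24 h and 48 h in the authors' deposited table. It was the only receptor of the 9 whose 4 values did not share a sign.

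Translation efficiency is the change in footprints relative to RNA. At both times 0 of the 9 receptors passed 1 in either direction, beside 3.11% of all genes at 24 h and 4.56% at 48 h. Receptors ranged from -0.48 (Pdgfra) to 0.22 (Fgfr1) at 24 h and from -0.54 (Pdgfra) to 0.51 (Fgfr1) at 48 h in the authors' deposited table. The 3 receptors with higher RNA all lay below 0, Egfr at -0.24 and -0.23, Pdgfra at -0.48 and -0.54 and Flt1 at -0.46 and -0.53 in the authors' deposited table. Of the 5 with RNA values below 0, 3 lay below 0 in translation efficiency at 24 h and 2 at 48 h. Pdgfrb stood at 0.21 and 0.32, Fgfr2 at -0.21 and -0.37, Fgfr3 at -0.10 and 0.14 and Kdr at -0.09 and -0.26 in the authors' deposited table. Met was at -0.21 and -0.48 in the authors' deposited table, so its RNA value of 0.36 at 48 h was not seen in footprints. The footprint value was closer to 0 than the RNA value in 6 of 9 receptors at 24 h and in 7 at 48 h. Neither this share nor the share below 0 in translation efficiency was taken over all genes. None of these counts therefore sets the receptors apart. The median translation efficiency of all genes was itself below 0, at -0.03 at 24 h and -0.05 at 48 h. Being relative to RNA, translation efficiency is also not independent of the RNA value. The quartiles of all genes were -0.29 and 0.26 at 24 h and -0.32 and 0.29 at 48 h, and Pdgfra and Flt1 lay below the lower one at both times.

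**Figure D2:**
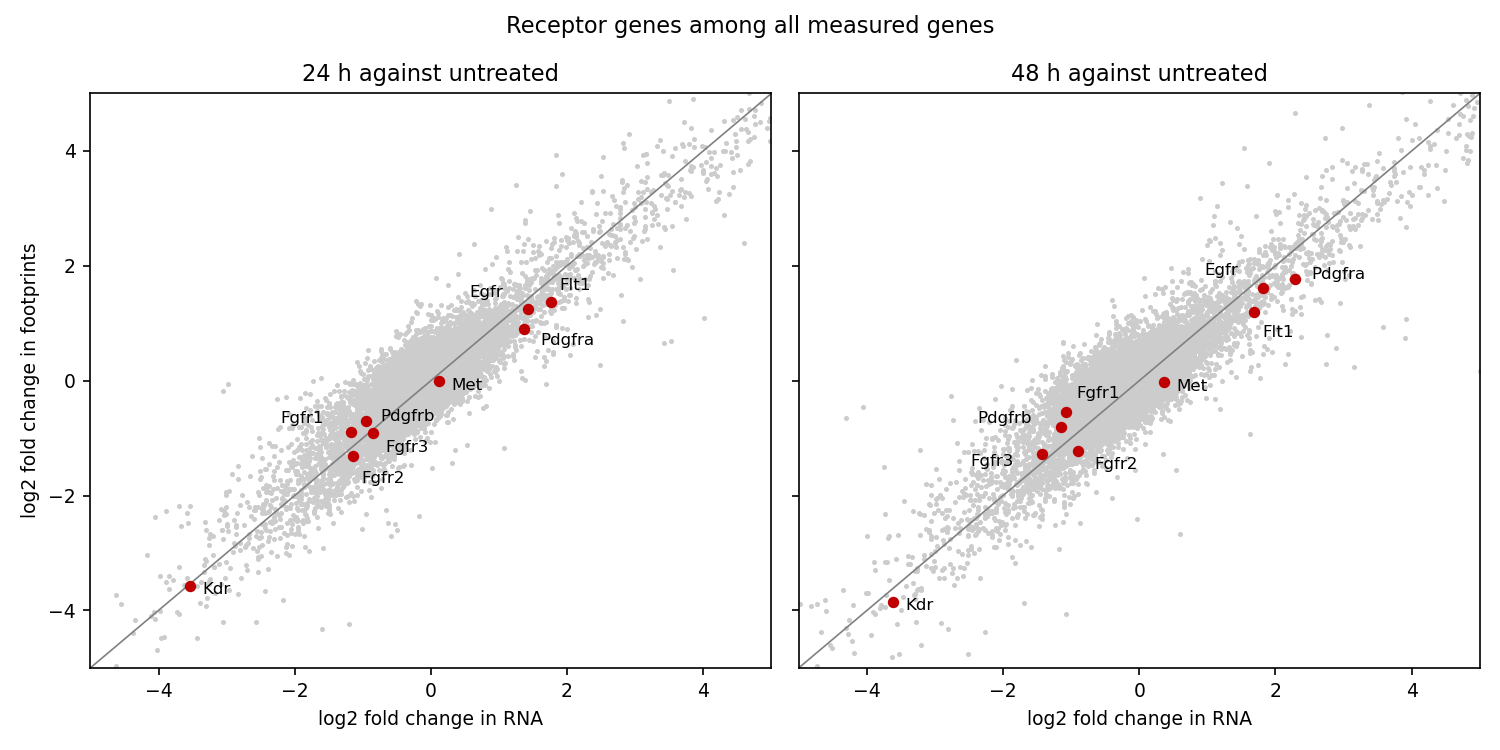
Log2 fold change in RNA (horizontal) against footprints (vertical) at 24 h (left) and 48 h (right), with all measured genes in grey, the 9 receptors in red and the line of equal change. Axes end at -5 and 5, which leaves out 145 genes at 24 h and 151 at 48 h, and the receptors with higher RNA lie below the line while Kdr lies far out at lower left.

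The ligands of these receptors were then read beside them. For the counts of every ligand family, the shares over all genes in RNA were 7.54% higher and 9.55% lower at 24 h. At 48 h these shares were 8.11% and 10.3%. Of 4 measured EGF receptor ligands, 2 were higher and 0 lower in RNA at both times (median 1.11 at 24 h and 1.24 at 48 h). Epiregulin (Ereg) was at 3.16 and 3.05 in RNA, with 3.94 and 3.79 in footprints, by the authors' deposited table. Amphiregulin (Areg) was at 1.60 and 1.90 in RNA and 1.25 and 2.05 in footprints by the authors' deposited table, though its translation efficiency of 0.28 at 24 h did not equal the difference of these values. Tgfa lay at 0.62 and 0.58, and Hbegf, which codes for HB-EGF, at -0.65 and -0.73 in RNA in the authors' deposited table. Receptor and 2 of its ligands were thus higher at both times.

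Among 6 measured genes of the FGF family, 2 were higher and 2 lower in RNA at 24 h (median 0.11), with the same counts at 48 h (median 0.11). Fgf7, whose product acts on an epithelial splice form of FGFR2, was at 2.97 and 3.48 in RNA in the authors' deposited table. Fgf2, a growth factor for astrocytes in culture, was at 1.92 and 1.85 in RNA in the authors' deposited table. Fgf18 was at -3.69 and -3.75 in RNA in the authors' deposited table, with footprints 4.56-fold and 2.82-fold lower. With translation efficiency at 0.93 and 1.64, these columns of Fgf18 did not add up within 0.1, and the reads behind them are unknown. Fgf1 RNA was 2.69-fold lower at 24 h and 2.00-fold lower at 48 h by the authors' deposited table. The RNA values of the 3 receptor genes were below 0, while those of the ligands had either sign. Fgf10 (0.79 and 0.94) and Fgf13 (-0.57 and -0.72), a family member that stays inside the cell, did not pass 1 in RNA in the authors' deposited table.

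Of the 4 PDGF genes, 0 passed 1 in RNA at 24 h (median -0.83), and 1 was lower at 48 h (median -0.66). Pdgfb was at -0.97 and -2.15 in RNA and at -0.30 and -1.97 in footprints by the authors' deposited table. Pdgfa, the ligand of PDGFRα alone, lay at 0.11 and 0.29 in RNA in the authors' deposited table. Pdgfc (-0.70 and -0.59) and Pdgfd (-0.95 and -0.73) were between -1 and 0 in RNA in the authors' deposited table.

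Of the 5 VEGF family genes, 1 was higher and 0 lower in RNA at both times (medians -0.42 and -0.34). Vegfc, whose product acts mainly on FLT4, was at 1.12 and 1.30 in RNA in the authors' deposited table. Vegfa was at -0.54 and -0.83 in RNA and at 0.26 and 0.00 in footprints by the authors' deposited table. Vegfb and Pgf, which code for ligands of FLT1 and not of KDR, were at -0.42 and 0.25 at 24 h and at -0.34 and 0.23 at 48 h in RNA in the authors' deposited table. Vegfb had translation efficiency values of 1.04 and 1.18 in the authors' deposited table, past 1 where its RNA was not. Figf, which codes for VEGF-D, was at -0.68 and -0.39 in RNA in the authors' deposited table.

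Hgf, the ligand of MET, had the highest RNA values of the measured ligands, 3.86 at 24 h and 4.71 at 48 h in RNA and 3.72 and 4.64 in footprints by the authors' deposited table. This is 14.5-fold and 26.2-fold higher in RNA, beside a receptor gene near 0. St14, a protease gene whose product can activate HGF, was at 0.90 and 1.16 in RNA in the authors' deposited table, and Spint2, which codes for an inhibitor of such proteases, at 0.72 and 0.48. Spint2 footprints were past 1, at 1.66 and 1.73, with translation efficiency at 0.99 and 1.26, by the authors' deposited table.

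**Figure D3:**
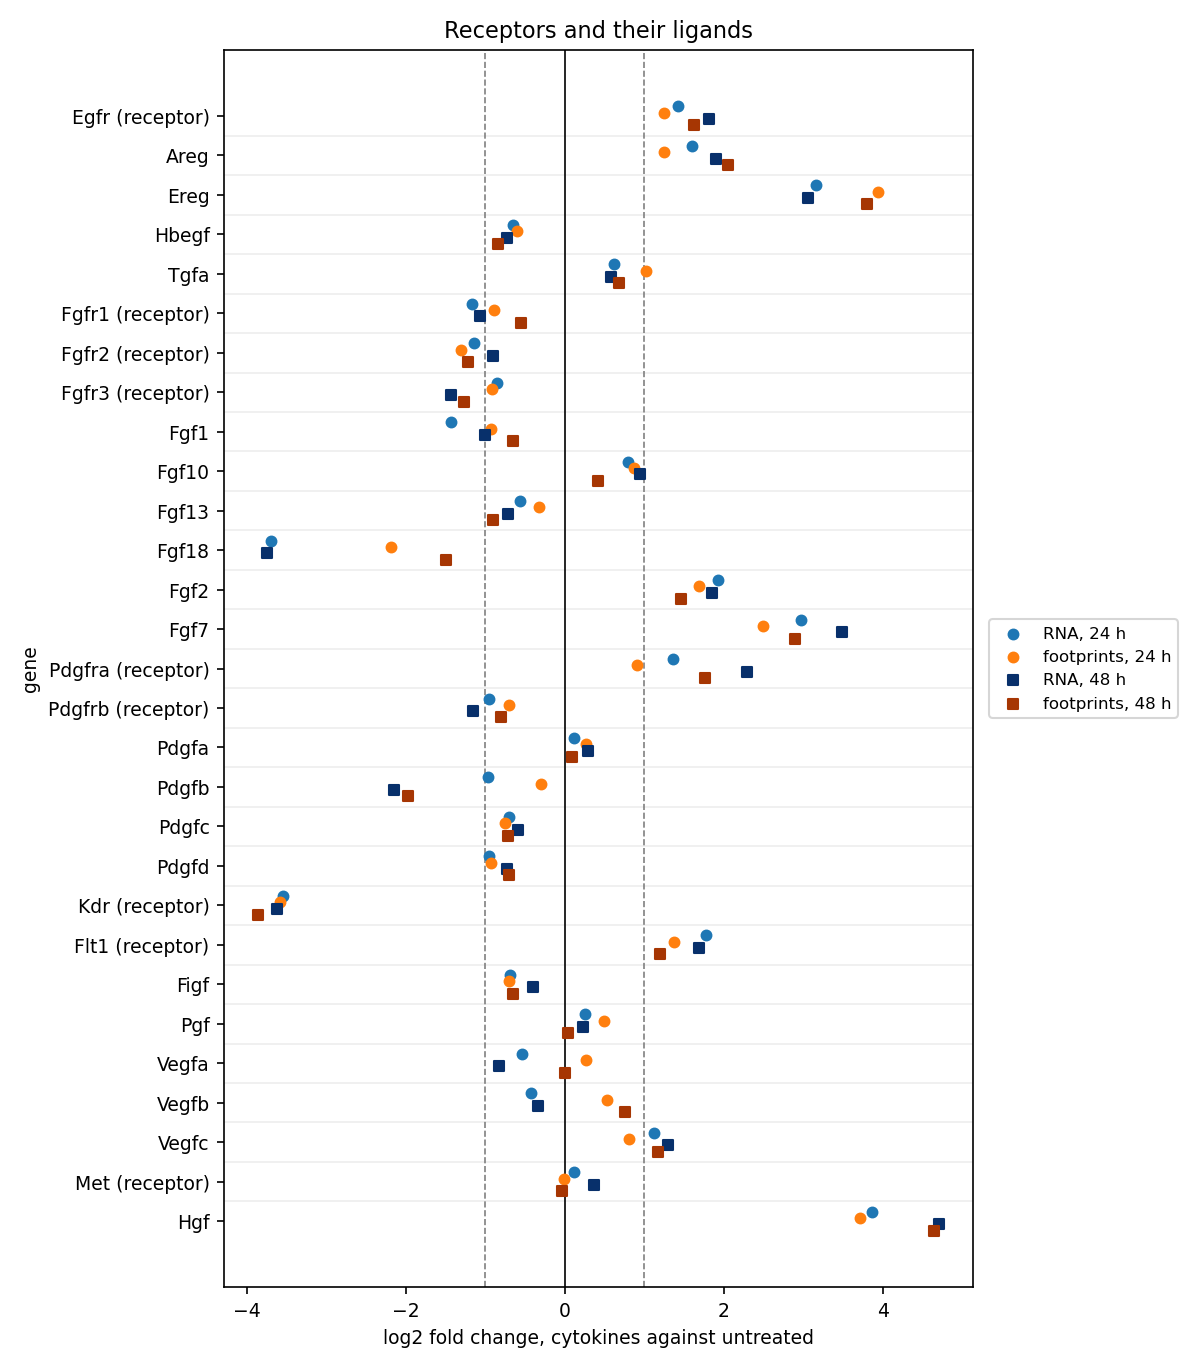
Log2 fold change against untreated cells (horizontal axis) of the 9 receptors and their measured ligand genes (vertical axis, grouped by family) in RNA and footprints at 24 h and 48 h, 1 deposited value per point with no error. Hgf and Ereg lie right of 3, Kdr and the RNA of Fgf18 left of -3.5, and Met near 0.

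Co-receptors and ligand carriers divided as well. Of 14 measured, 3 were higher and 3 lower in RNA at 24 h (median -0.37), beside 7.54% and 9.55% of all genes. At 48 h 3 were higher and 4 lower (median -0.44), beside 8.11% and 10.3%. Nrp1, a co-receptor for VEGF-A, was at 1.74 and 1.81 in RNA in the authors' deposited table. Sdc4, a heparan sulfate co-receptor for FGFs, was at 1.69 and 1.89, and Cd44, which can present HGF to MET, at 3.72 and 3.77 in RNA in the authors' deposited table. Lower were Fgfbp1, which codes for a carrier that frees FGFs from the matrix, at -6.43 and -5.97, and the glypican gene Gpc1 at -2.51 and -2.98 in RNA in the authors' deposited table. Fgfbp1 was less far from 0 in footprints, at -3.59 and -4.53, with translation efficiency at 2.56 and 1.10, by the authors' deposited table. These columns of Fgfbp1 did not add up within 0.1, and the reads behind them are unknown. Gpc4, named after its values were seen, was lower too, at -1.09 and -1.30, and Gpc3 was at -0.48 at 24 h and past the threshold at 48 h, at -1.21, by RNA values of the authors' deposited table.

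Of the 6 genes for shedding of EGF receptor ligands, 3 were higher and 2 lower in RNA at both times (medians 1.05 and 1.11). The shares over all genes were 7.54% higher and 9.55% lower at 24 h, and 8.11% and 10.3% at 48 h. Adam17, the protease that releases TGFα and amphiregulin, was at 2.00 and 2.15, and Rhbdf2, whose product brings it to the surface, at 2.25 and 1.97 in RNA in the authors' deposited table. Rhbdl2, a membrane protease gene, was at 2.29 and 2.82 in RNA in the authors' deposited table. Timp3, which codes for an inhibitor of ADAM17, was at -2.11 and -2.21, and Rhbdf1 at -1.30 and -1.67 in RNA in the authors' deposited table.

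Genes of the signalling steps below the receptors lay nearer to 0. Over all genes, 7.54% were higher and 9.55% lower in RNA at 24 h, and 8.11% and 10.3% at 48 h. Of 35 adaptors and effectors, 2 were higher and 2 lower in RNA at each time, and the medians of -0.05 and -0.04 lay near those of all genes. Those past 1 were the adaptor gene Nck1 (1.29 and 1.38), the PI3K regulatory subunit gene Pik3r1 (1.19 and 1.07), the catalytic subunit gene Pik3cb (-1.18 and -1.36) and the adaptor gene Shc3 (-1.16 and -1.18) in RNA in the authors' deposited table. Of 22 feedback inhibitors, 2 were higher and 1 lower in RNA at each time (medians 0.19 and 0.32). Lrig1, whose product promotes the breakdown of EGFR, was at 1.64 and 1.89, and the phosphatase gene Ptpn2 at 2.50 and 2.45 in RNA in the authors' deposited table. Errfi1, which codes for an inhibitor of the EGFR kinase, was at 0.65 and 0.84 in RNA and 0.67 and 1.17 in footprints by the authors' deposited table. The phosphatase gene Ptpn1 was at 0.94 and 0.63 in RNA in the authors' deposited table and past 1 in footprints, at 1.23 and 1.14. Spry1, an inhibitor of FGF signalling, was at -1.13 and -1.14 in RNA in the authors' deposited table.

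Of 10 genes that ERK signalling is known to induce, 4 were higher and 0 lower in RNA at each time (medians 0.27 and 0.47). The shares over all genes were 7.54% higher and 9.55% lower at 24 h, and 8.11% and 10.3% at 48 h. Ier3 (4.43 and 4.11), Fosl1 (2.65 and 3.12), Phlda1 (2.05 and 2.24) and Myc (1.32 and 1.11) were past 1 in RNA in the authors' deposited table. Some of these are also induced by other inflammatory signals, so they are not specific to these receptors. The FGF-responsive factor genes Etv4 (0.46 and 0.72) and Etv1 (-0.54 and -0.06) were not past 1 in RNA in the authors' deposited table. In footprints the authors' deposited table had Etv4 at 0.90 and 1.18 and Etv1 at -1.36 and -0.46.

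**Figure D4:**
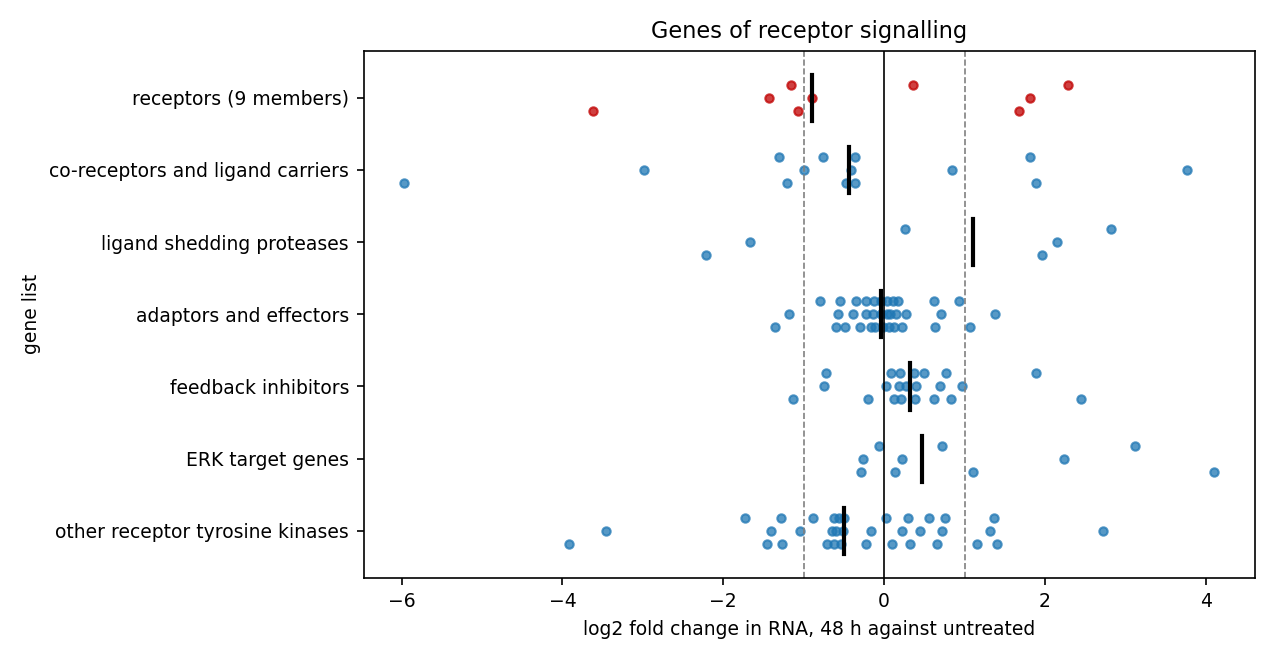
Log2 fold change in RNA at 48 h (horizontal axis) of the 9 receptors (red) and of the measured members of 6 lists of related genes (blue), 1 point per gene spread vertically for sight, with a black bar at each list's median and dashed lines at -1 and 1. Adaptors and effectors cluster around a median of -0.04, while the receptors span 5.91 units.

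Other receptor tyrosine kinases also had values of either sign, with more genes lower than higher. Of 35 measured, 5 were higher and 9 lower in RNA at 24 h (median -0.52), beside 7.54% and 9.55% of all genes. At 48 h 5 of the 35 were higher and 8 lower (median -0.50), beside 8.11% and 10.3%. Beside Erbb4 and Flt4, given above, the measured kinases held Flt3, at 1.93 and 2.72 in RNA and 3.60 and 4.23 in footprints, and Kit, at -2.80 and -3.91 in RNA, in the authors' deposited table. Flt3 had translation efficiency at 1.42 and 1.39, and its columns did not add up within 0.1 at either time. Epha5 (-1.96 and -1.45), the neurotrophin receptor gene Ntrk2 (-1.58 and -1.73) and the angiopoietin receptor gene Tek (-1.02 and -0.56) lay below 0 in RNA in the authors' deposited table.

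Of the 9 receptor genes, 4 lie on chromosome 5 in GRCm38.p6, the build matching mm10. Pdgfra spans 75151322 to 75198206, Kdr 75932827 to 75979072, Flt1 147561604 to 147726438 and Fgfr3 33721724 to 33737068. Kit lies between Pdgfra and Kdr, 377 kb from the first and 276 kb from the second, and is the only measured gene between them. RNA of these neighbours was higher for Pdgfra and lower for Kit and Kdr, as given above. The ratio of Pdgfra to Kdr mRNA was 30.0-fold higher than in untreated cells at 24 h and 60.0-fold higher at 48 h. Chic2, 107 kb on the other side of Pdgfra, was at 0.75 and 0.86, and Srd5a3, 161 kb beyond Kdr, at -0.07 and 0.08 in RNA in the authors' deposited table. Flt1 and Flt3, in contrast, are 161 kb apart and were both higher, while Pan3 between them stood at 0.27 and 0.24 in RNA in the authors' deposited table. These neighbourhoods were chosen after the values were seen.

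**Figure D5:**
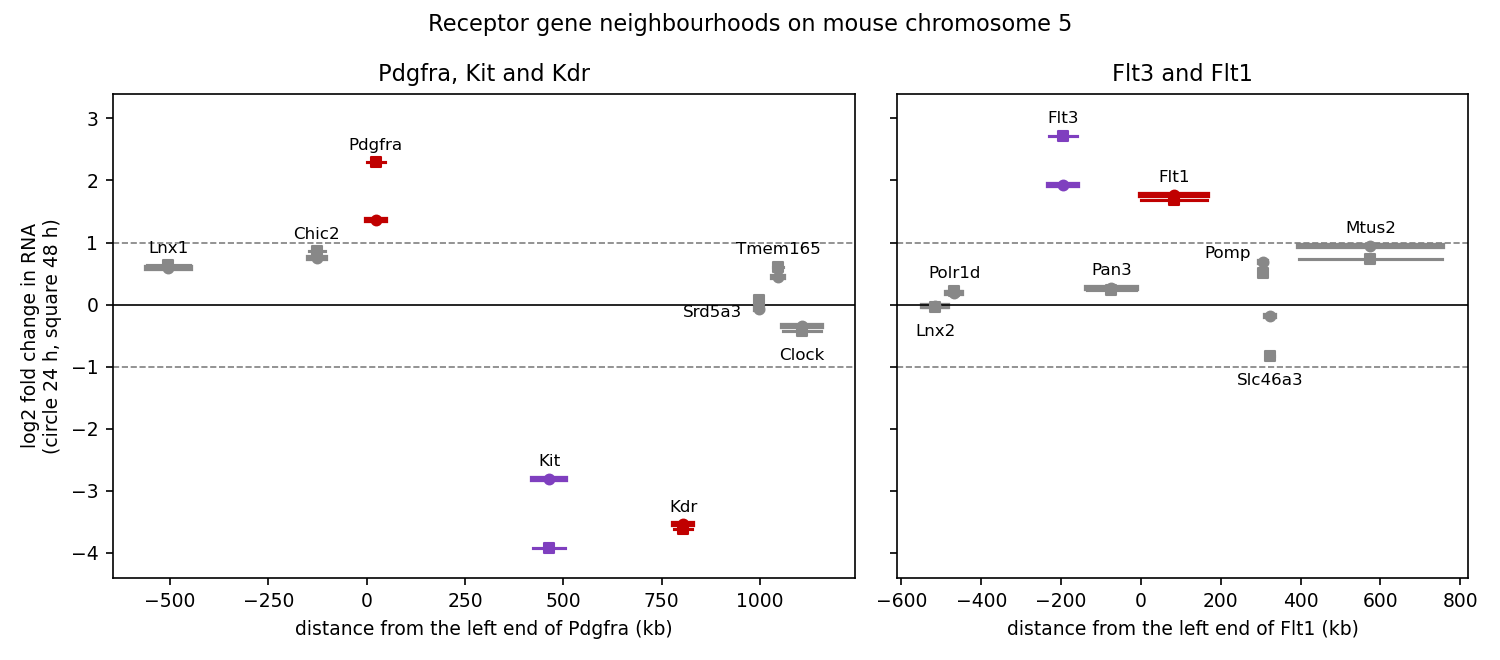
Log2 fold change in RNA (vertical axis, circles 24 h, squares 48 h) against distance in kb from the left end of Pdgfra (left) or Flt1 (right), with a line over each measured gene within 500 kb of a receptor in the cluster, receptors under study in red, other receptor tyrosine kinases in purple and other genes in grey. Pdgfra stands above 1 and Kit and Kdr below -2.5, while both Flt3 and Flt1 stand above 1.5.

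The remaining members lie on chromosome 11 (Egfr, 16752203 to 16913907), 8 (Fgfr1, 25518759 to 25575718), 7 (Fgfr2, 130162451 to 130266808), 18 (Pdgfrb, 61045127 to 61085067) and 6 (Met, 17463349 to 17573980).

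Several receptors are markers of other cells, and in bulk libraries fewer cells of a type and less RNA per cell cannot be told apart. Of 7 endothelial markers 4 were measured, with Kdr and Flt1 among them, and RNA values ranged from -3.54 to 1.77 at 24 h. In RNA 1 was higher and 3 lower at 24 h (7.54% and 9.55% of all genes). At 48 h 1 was higher and 2 lower (8.11% and 10.3%). The other 2 were Cdh5, which codes for the endothelial cadherin, at -1.04 and -1.25 in RNA, and Tek, given above. Their footprints were at -1.16 and -1.09 (Cdh5) and at -1.93 and -1.21 (Tek) in the authors' deposited table. Of 6 pericyte and smooth muscle markers measured out of 8, 1 was higher and 1 lower in RNA at 24 h (7.54% and 9.55% of all genes, median -0.37). Beside Pdgfrb they held Rgs5 at 2.85 and 2.78 and the smooth muscle actin gene Acta2 at -3.01 and -3.90 in RNA in the authors' deposited table. All 5 fibroblast and meningeal markers were measured, and 3 of them were higher in RNA at both times, beside 7.54% and 8.11% of all genes. These were Pdgfra, Dcn (4.16 and 5.73) and Lum (2.92 and 3.49), while Col1a1 (-0.58 and -0.36) and Col1a2 (-0.28 and -0.01) were not past 1 in the authors' deposited table. Of 4 oligodendrocyte precursor markers measured out of 6, Pdgfra was higher, while Olig1 (-1.54 and -1.28), Olig2 (-0.45 and -0.73) and Cspg4 (-0.36 and -0.34) lay below 0 in RNA in the authors' deposited table. The part of such cells in the receptor values was not tested, and levels per library, which would show how much of each marker is present, were not analysed here.

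All 9 astrocyte markers were measured, and 2 were higher and 4 lower in RNA at 24 h (7.54% and 9.55% of all genes, median -0.50). Aldh1l1 (-1.23 and -1.52), Sox9 (-1.21 and -1.14), S100b (-1.23 and -2.10) and Gfap (-1.79 and -2.11) were lower in RNA in the authors' deposited table. At 48 h 1 was higher and 4 lower (8.11% and 10.3% of all genes, median -0.54). Slc1a2 was higher at both times, at 2.17 and 2.28, and Slc1a3 passed 1 at 24 h, at 1.05, but not at 48 h, at 0.97, by RNA values of the authors' deposited table, and Glul, Aqp4 and Gja1 were between -1 and 1. Of 6 microglia, 5 neuron and 5 oligodendrocyte markers, 1, 3 and 2 were measured, and 2 of these were lower in RNA at 24 h, Map2 at -2.49 and Cnp at -1.49, in the authors' deposited table. The microglia marker was Tmem119, at 0.18 and 0.09 in RNA in the authors' deposited table.

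For each of the 8 receptors past 1 in some column, the genes nearest in pattern were taken by Euclidean distance over the 4 values of RNA and footprints. Nearest to Kdr were Adcy1, at a distance of 0.19, Rab11fip4 (0.41) and C530008M17Rik (0.52), and 2 genes in all lay within 0.5. Nearest to Pdgfra were Brinp3 (0.11), Cntnap3 (0.30) and Crispld1 (0.39), with 8 genes within 0.5. Nearest to Flt1 were Slc39a8 (0.13), Rel (0.15) and Adam12 (0.21), with 50 within 0.5, and nearest to Egfr D10Wsu102e (0.19), Lancl3 (0.24) and Ptger4 (0.25), with 57. The patterns of Fgfr1, Fgfr2, Fgfr3 and Pdgfrb were more common, with 192, 191, 83 and 287 genes within 0.5. Their nearest genes were Mtfr2, Rrm2 and Hs3st1 for Fgfr1, Mcm4, Pag1 and Glrb for Fgfr2, Plekha7, Alcam and Casq1 for Fgfr3, and Crtc3, Oscp1 and Ift43 for Pdgfrb. Likeness over the 4 values rests in part on the shared untreated libraries.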

How the data were processed

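Each of the 18 libraries was labelled with a treatment and a batch. Per the submitters' processing notes, the tools include TopHat2 and featureCounts and the build mm10, without versions. The normalization of counts and the joining of batches: not given in the sources used here. Per the file headers, the authors deposited log2 fold changes relative to untreated cells, 6 columns for 12205 genes. The translation efficiency columns name no scale and were read as log2, because in all 9 receptors they lay within 0.1 of footprints minus RNA (79.5% of all genes at 24 h and 78.0% at 48 h). All cells held values, and no genes were filtered out. Depth per library and the precision it gives are unknown.

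Genes past 1 were counted, ratios between genes came from differences of log2 values, and times were compared by subtraction (Python 3.11.15, pandas 2.3.3). The counting was tested on simulated data. A planned test across batches could not be run. Members and lists were chosen with earlier results of these data known. Named genes were all 9 receptors, up to 6 per list past 1, their ligands, and the 3 genes nearest in pattern to each receptor past 1. Others are said to be chosen later where named, and cell type markers are all members of their lists, of which 1 is not reported here. Other thresholds, centring and footprints minus RNA were tried. Positions and sequences came from RefSeq, GRCm38.p6, by symbol.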

Additional observations from a re-analysis of the deposited data

How the results depend on the processing

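Centring each column on the median of all genes, or taking footprints minus RNA as translation efficiency, left every count of receptors and of related genes within 1.5 times its value. Keeping only receptors whose columns add up within 0.1 removed 0 of the 9, so it tested nothing. At 0.5 in place of 1, 5 receptors were lower in RNA at 24 h (21.1% of all genes), 5 in footprints at 24 h (18% of all genes) and 5 in footprints at 48 h (18%). In translation efficiency at 48 h 1 was then higher (14.5%) and 2 lower (11.9%), and for 48 h minus 24 h 1 was higher (3.34%) and 1 lower (3.42%) in RNA and 1 higher in footprints (4%). At 2, 0 receptors were higher in RNA at 24 h (3.79%), 0 in footprints at 24 h (3.79%), 1 in RNA at 48 h (3.91%) and 0 in footprints at 48 h (3.75%). In each of these 4 columns 1 was lower, Kdr, beside 2.29%, 2.38%, 2.72% and 2.57% of all genes. Over the 144 measured genes of the related lists, past 1 in either direction were 44 and 46 in RNA at 24 h and 48 h (all genes 17.1% and 18.4%, lists 30.6% and 31.9%). In footprints they were 40 and 44 (all 16.6% and 16.8%, lists 27.8% and 30.6%). In translation efficiency they were 4 and 6 (lists 2.78% and 4.17%), near the 3.11% and 4.56% of all genes. As the lists were chosen with earlier results of these data known, a share above that of all genes is no finding about them. At 0.5 the lists had 86 and 86 in RNA (all genes 35.9% and 39.3%), 84 and 90 in footprints (35.1% and 35.6%), and 31 and 35 in translation efficiency (21.9% and 26.4%). At 2 they had 17 and 18 (6.07% and 6.63%), 15 and 16 (6.16% and 6.33%), and 1 and 0 (0.377% and 0.475%). No paired analysis was possible because the table holds no values per batch, and leaving out a batch was not run for the same reason. Without counts, large folds such as that of Kdr could not be checked for low depth.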
